A study of Mus musculus with 12 samples.

Results

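Keratins are the intermediate filament proteins of epithelial cells, and each filament is built from pairs of an acidic type I and a basic or neutral type II chain. In the epidermis, Krt5 and Krt14 pair in the basal layer, Krt1 and Krt10 replace them as keratinocytes move up and differentiate, and Krt6a, Krt6b, Krt16 and Krt17 are induced by wounding, hyperproliferation and tumor growth. Krt8 and Krt18 pair in simple epithelia and can reappear in squamous carcinomas, and a further set of keratins builds the hair shaft and the root sheath. Keratins are not part of the filament system of macrophages, which is built from vimentin.

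The keratin genes were all genes whose name is Krt followed by a digit, which gave 55 of the 53801 genes in the count tables; keratin-associated proteins were not included. They were read by their gene IDs in 12 libraries of RNA sequencing from cutaneous squamous cell carcinomas of FVB mice, sorted by flow cytometry. The tumor cells were YFP-marked basal epithelial cells with the surface integrins CD49f and CD29, sorted into 3 libraries positive and 3 libraries negative for an mScarlet reporter of TGF-beta signaling. The macrophages were CD45+ F4/80+ cells of such tumors, sorted into 3 libraries positive and 3 libraries negative for FceRIa, a chain of the IgE receptor of high affinity. All 4 groups therefore share the tumor and the strain, and both tumor groups share the YFP mark and the basal gate. The labels used here do not give the driver of the YFP mark, how the tumors arose, the age of the mice or how many animals went into a library.

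By role, 3 of the 55 genes are basal, 13 suprabasal or cornified-epithelium, 4 stress, 6 simple-epithelial, 10 root sheath and 14 hair shaft keratins, with 5 others. Their genes lie in a type I cluster on chromosome 11 and a type II cluster on chromosome 15 (GRCm38, GENCODE M21), where for example Krt16 spans chr11:100246091-100248902 and Krt6b spans chr15:101676023-101680287. One processed pseudogene, Krt8-ps, lies on chromosome 7. Krt18 is the type I gene that sits in the chromosome 15 cluster, at chr15:102028180-102032027, beside its partner Krt8 at chr15:101996698-102004482.

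Libraries held 27951632 to 35088897 counts in the tumor cells and 33704786 to 40041144 in the macrophages, and levels are given as CPM, the counts scaled to a common library size. A count of 3, taken as the floor of detection, was 0.085 to 0.107 CPM in the tumor libraries and covers counting error only. Each comparison was fitted over all genes with edgeR's quasi-likelihood test and a Benjamini-Hochberg adjusted p under 0.05 as a call, once without pairing and once with the replicate number as a block, here called the unpaired and the paired fit. The labels do not say what a replicate number marks or whether libraries came from separate mice, so p-values measure the spread between these libraries. In the macrophages, the count columns of number 2 carry the suffix New in both groups, and those of numbers 1 and 3 do not. What the suffix marks is not known here. In the tumor cells, numbers 1 and 3 of a group differed little, where chi-square over genes, divided by its degrees of freedom, was 1.65 in the positive and 3.13 in the negative cells, against 46.8 to 98.9 for every pair that includes number 2. Tumor replicate 2 therefore stands apart in both groups, and results that rest on it are given with and without it. Adjusted p-values without it measure little more than the counting error between numbers 1 and 3. The paired fit of all tumor libraries also counts numbers 1 and 3 as separate blocks, although they differ little. Because the samples are bulk, fewer cells of a type and less RNA per cell cannot be told apart.

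Promoter sequences are shown for Krt13, Krt42 and Krt78, which all rose in the paired fit described below and had a window in the annotation. Krt8 also rose and had a window, which overlaps the annotated gene and is not printed. Each window is the 250 bases before the RefSeq start (GRCm38.p6, minus strand, written 5′ to 3′ toward the gene). Windows were searched on both strands for TATAAA (the TATA box), TGANTCA and CAGAC (a core that SMAD proteins, the carriers of TGF-beta signals, can bind). TGANTCA takes any base at N, where the AP-1 site has C or G, so it is a looser pattern than that site. The capitals mark the matches, written as they read on the gene's strand.

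Krt13, chr11:100121567-100121816: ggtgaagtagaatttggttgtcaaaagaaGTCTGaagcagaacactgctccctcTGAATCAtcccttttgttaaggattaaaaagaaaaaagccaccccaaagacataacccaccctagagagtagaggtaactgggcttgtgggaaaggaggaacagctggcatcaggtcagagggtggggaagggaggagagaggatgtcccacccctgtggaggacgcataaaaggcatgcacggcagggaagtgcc
Krt42, chr11:100269952-100270201: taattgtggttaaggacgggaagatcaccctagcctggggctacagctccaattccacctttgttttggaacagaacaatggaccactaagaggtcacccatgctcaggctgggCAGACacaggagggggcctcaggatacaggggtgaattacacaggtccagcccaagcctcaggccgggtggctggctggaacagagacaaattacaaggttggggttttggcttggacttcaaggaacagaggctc
Krt78, chr15:101954288-101954537: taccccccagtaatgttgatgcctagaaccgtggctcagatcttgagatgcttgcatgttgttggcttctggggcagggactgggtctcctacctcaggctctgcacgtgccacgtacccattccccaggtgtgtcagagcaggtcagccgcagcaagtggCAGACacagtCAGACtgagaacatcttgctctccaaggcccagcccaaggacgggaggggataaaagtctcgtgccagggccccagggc

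All of these windows held CAGAC, as did 18 of the 36 keratins with a window and 42.2% of the 32851 RefSeq windows of that length. The windows of Krt14 and Krt7, which count among the 18, lie inside the annotated gene, and some others overlap its start. Krt13 was the one keratin of the 36 with TGANTCA, from base -196 to -190 before its start, and 6.75% of all windows held that motif. The Krt13 match, TGAATCA, has A at the open base. TATAAA was in 17 of the 36 keratin windows and in 12.4% of all windows, and in none of the sequences printed here. A match is a run of letters and no evidence of binding.

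In the reporter-positive tumor cells, most stress keratins stood above their level in the reporter-negative cells, while the level of the basal pair differed little. In the paired fit Krt16, Krt6b, Krt17, Krt1, Krt13, Krt78, Krt8 and Krt42 rose, and Krt15 fell. Of the 55 keratins, 22 passed the filter on low counts, 33 did not, and 10 of these were at 0 in all 6 tumor libraries. The paired fit called 8 keratins higher and 1 lower and left 13 uncalled; over all 13604 genes tested it called 10.7% higher and 7.34% lower. The unpaired fit called 0 higher and 0 lower, while 7 keratins (6 higher, 1 lower) had an unadjusted p under 0.05 and DESeq2 without pairing called 3 higher (Krt8, Krt16 and Krt78) and 1 lower (Krt15). Over all 13604 genes the unpaired fit called 0.573% higher and 0.235% lower. In that fit 2642 of them had an unadjusted p under 0.05, 1508 higher and 1134 lower. No share over all genes is given for the DESeq2 counts. The groups did not overlap for 7 keratins that were higher and 2 that were lower in the positive cells, against 14.6% and 13.6% of all genes tested. The median log2 difference of the 22 keratins was 0.49 in the paired fit, against 0.0 for all genes tested.

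Among the basal keratins, Krt14, the type I chain of the basal layer, had 32673, 41134 and 32236 CPM in the positive cells and 32977, 37889.7 and 34303 CPM in the negative cells. These ranges overlap, and the log2 difference in the paired fit was 0.01 ± 0.08 (SE, adjusted p = 0.971). Krt5, its type II partner, had 23651, 25965 and 23607 CPM in the positive cells and 26355, 29341 and 26419 CPM in the negative cells. Every positive library was below every negative one, but the log2 difference of -0.16 ± 0.07 did not pass the test (adjusted p = 0.132 in the paired fit and 0.319 in the unpaired fit). Without replicate 2 both Krt14 (log2 -0.06) and Krt5 (log2 -0.16) were called lower, with adjusted p-values of 0.0376 and 4.36e-07 in the unpaired fit.

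Krt15 is a type I basal keratin known from the hair follicle bulge, where stem cells lie, and from quiescent basal cells. It had 21.9, 37.6 and 19.7 CPM in the positive cells and 52.5, 76.1 and 47.7 CPM in the negative cells. Each positive library was lower than each negative one, and in both groups replicate 2 was the highest. The log2 difference was -1.18 ± 0.07 with pairing (adjusted p = 0.00201), called as a fall, and -1.15 ± 0.29 in the unpaired fit (adjusted p = 0.112). Within numbers 1, 2 and 3 the log2 ratio was -1.26, -1.02 and -1.27.

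All 4 stress keratins passed the filter. The paired fit called 3 of them higher, and the median of the 4 log2 differences was 0.94. Krt16, the type I chain induced in wound-edge and hyperproliferative epidermis, had 3509, 7609 and 3423 CPM in the positive cells and 1738, 2589 and 1682 CPM in the negative cells. The groups did not overlap, and positive replicate 2 was the highest library. Its log2 difference was 1.20 ± 0.12 in the paired fit (adjusted p = 0.00492) and 1.27 ± 0.36 in the unpaired fit (adjusted p = 0.129). With both number 2 libraries left out it was 1.01, and it was called (adjusted p = 1.88e-19).

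Krt6b, a type II partner of Krt16, had 1334, 5564 and 1286 CPM in the positive cells and 562, 1252 and 541 CPM in the negative cells. It was higher within every number, but the gap between positive replicates 1 and 3 and negative replicate 2 was small. The log2 difference was 1.55 ± 0.18 in the paired fit (adjusted p = 0.00713) and 1.80 ± 0.68 in the unpaired fit (adjusted p = 0.215). Without number 2 it was 1.24 (adjusted p = 7.53e-20). Krt17, a type I keratin of appendages and of damaged or transformed epidermis, had 849.6, 3021 and 843 CPM in the positive cells and 612, 1364 and 619 CPM in the negative cells. Its groups overlap, because negative replicate 2 lies above positive replicates 1 and 3, and the log2 difference was 0.69 ± 0.14 in the paired fit (adjusted p = 0.024) and 0.86 ± 0.60 in the unpaired fit (adjusted p = 0.5). Without number 2 it was 0.45 (adjusted p = 1.95e-12).

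Krt6a, the other type II stress keratin and the most abundant of the class, had 9691, 14678 and 10084 CPM in the positive cells and 8685, 9736 and 8388 CPM in the negative cells. Positive replicate 1 was just below negative replicate 2, so the groups overlap. The log2 difference of 0.34 ± 0.09 missed the threshold in the paired fit (adjusted p = 0.0559), and without number 2 it was 0.21 and called (adjusted p = 2.86e-07). Of the 50-base stretches of the Krt6a transcripts, 57.2% also occur in other genes and 40.2% in Krt6b, and 44.5% of those of Krt6b occur in Krt6a. Krt16 shares 37.6% of its stretches, 25.2% with the predicted gene Gm11597, and Krt14 shares 11% with Krt16. The sources used here do not say how reads of such stretches were assigned, so the split between Krt6a and Krt6b is uncertain.

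**Figure D1:**
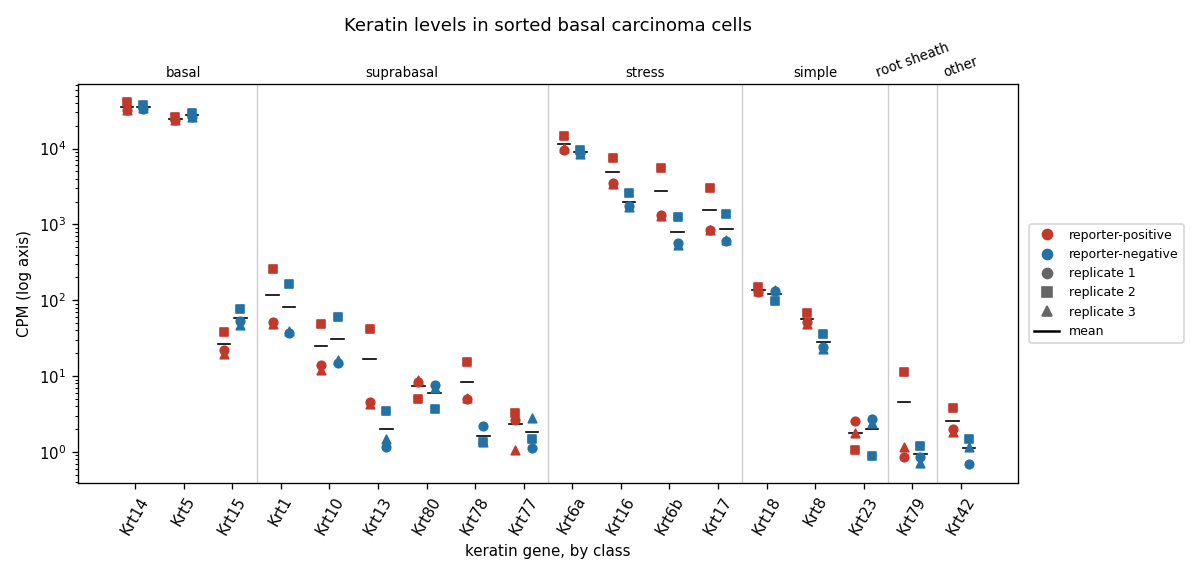
Levels of the named keratins that passed the filter in the tumor cells, in CPM on a log axis, ordered by class. Points are single libraries with a shape for each replicate number, reporter-positive left of reporter-negative for each gene, and bars are group means. Krt14 and Krt5 sit near the top in both groups, while Krt16 averaged 4847 CPM in positive and 2003 CPM in negative cells and Krt15 averaged 26.4 CPM in positive and 58.8 CPM in negative cells.

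Of the 13 suprabasal keratins, 6 passed the filter and 3 rose in the paired fit. Krt1, the type II chain of the spinous layer, had 51.7, 257 and 49.0 CPM in the positive cells and 37.0, 166 and 38.9 CPM in the negative cells. The difference between number 2 and the other numbers was larger than the one between groups, which overlap. The log2 difference was 0.49 ± 0.07 in the paired fit (adjusted p = 0.00939) and 0.57 ± 0.87 in the unpaired fit (adjusted p = 0.786), and it was 0.40 without number 2 (adjusted p = 2.66e-07). Krt10, its type I partner, had 14.0, 48.8 and 12.2 CPM in the positive cells and 15, 60.2 and 16.4 CPM in the negative cells. Krt10 was lower within every number where Krt1 was higher, but its log2 difference of -0.28 ± 0.08 missed the threshold (adjusted p = 0.0563 in the paired fit and 0.887 in the unpaired fit). Without number 2 it was -0.26 and called (adjusted p = 0.0142).

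Krt13 is the type I keratin of the suprabasal layers of internal stratified epithelia such as the mouth and is known from carcinogen-induced mouse skin tumors. It had 4.52, 42.2 and 4.30 CPM in the positive cells and 1.17, 3.43 and 1.5 CPM in the negative cells. The groups did not overlap, and positive replicate 2 was far above all other libraries. The log2 difference was 2.62 ± 0.40 in the paired fit (adjusted p = 0.0117) and 3.07 ± 1.05 in the unpaired fit (adjusted p = 0.183). Without number 2 it was 1.72 (adjusted p = 5.98e-08), less than in the fit with all libraries.

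Krt78, a type II keratin of stratified epithelia, had 5.02, 15.2 and 5.11 CPM in the positive cells and 2.19, 1.37 and 1.36 CPM in the negative cells. No negative library reached a positive one. Its log2 difference was 2.19 ± 0.40 in the paired fit (adjusted p = 0.0179), 2.36 ± 0.51 unpaired (adjusted p = 0.0878) and 1.51 without number 2 (adjusted p = 2.96e-07). Krt80, a type II keratin linked to desmosomes in differentiating cells, and Krt77, a type II keratin of sweat ducts in human skin, had 1.07 to 8.91 CPM in the positive cells and 1.11 to 7.59 CPM in the negative cells, and neither was called (adjusted p = 0.0968 and 0.649 in the paired fit). Of the 7 untested suprabasal genes, Krt2, the type II keratin of the upper epidermis, had 0, 37 and 2 counts in the positive cells and 0, 61 and 1 counts in the negative cells, nearly all in replicate 2, and the other 6 had at most 25 counts in any tumor library.

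Among the 6 simple-epithelial keratins, 5 passed the filter and Krt8 was the one that rose in the paired fit. Krt8 had 51.5, 67.5 and 49.2 CPM in the positive cells and 24.5, 36.0 and 23.0 CPM in the negative cells. The groups did not overlap, and the log2 ratio was 1.07, 0.91 and 1.10 within numbers 1, 2 and 3. The log2 difference was 1.02 ± 0.06 in the paired fit (adjusted p = 0.00201), 1.01 ± 0.20 unpaired (adjusted p = 0.0815) and 1.08 without number 2 (adjusted p = 4.04e-14). Its partner Krt18 had 127, 148 and 131 CPM in the positive cells and 131, 98 and 137 CPM in the negative cells. Krt18 was higher in the positive cells in number 2 alone, and its log2 difference was 0.17 ± 0.13 (adjusted p = 0.416 in the paired fit). Krt7, Krt19 and Krt23 were at 2.70 CPM or below in every tumor library and were not called. Of the Krt8 stretches of 50 bases, 26.9% also occur in Krt8-ps, which had at most 2 counts in any tumor library.

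Hair shaft keratins were near the floor: of 14, none passed the filter, 7 were at 0 in all 6 tumor libraries, and the highest count was 19, of Krt32 in negative replicate 2. Of the 10 root sheath keratins, 3 passed the filter and none was called (Krt27, Krt71 and Krt79). Krt79, a type II keratin of the sebaceous duct and the upper follicle, had 0.853, 11.4 and 1.17 CPM in the positive cells and 0.853, 1.21 and 0.709 CPM in the negative cells. One library, positive replicate 2, carries that difference, and the log2 value of 1.69 ± 0.61 did not pass the paired test (adjusted p = 0.107). Without number 2 it was 0.36 (adjusted p = 0.395). Krt74, a root sheath keratin that is a pseudogene in this annotation and was chosen after its values were seen, had 59, 1 and 53 counts in the positive cells and 1, 2 and 2 counts in the negative cells. It did not pass the filter on low counts over all 6 libraries, and positive replicate 2 was as low as the negative cells. Without number 2 it passed the filter and was called higher in the paired fit. Krt42, a type I keratin that is a pseudogene in humans, had 1.99, 3.80 and 1.81 CPM in the positive cells and 0.682, 1.47 and 1.16 CPM in the negative cells. It rose in the paired fit (log2 1.18 ± 0.23, adjusted p = 0.021), with no library above 3.80 CPM, and the log2 difference was 1.04 without number 2 (adjusted p = 0.00309). Of the keratins outside these classes, Krt222 and Krt88 were at 0 in all 6 libraries and Krt90 had at most 12 counts.

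**Figure D2:**
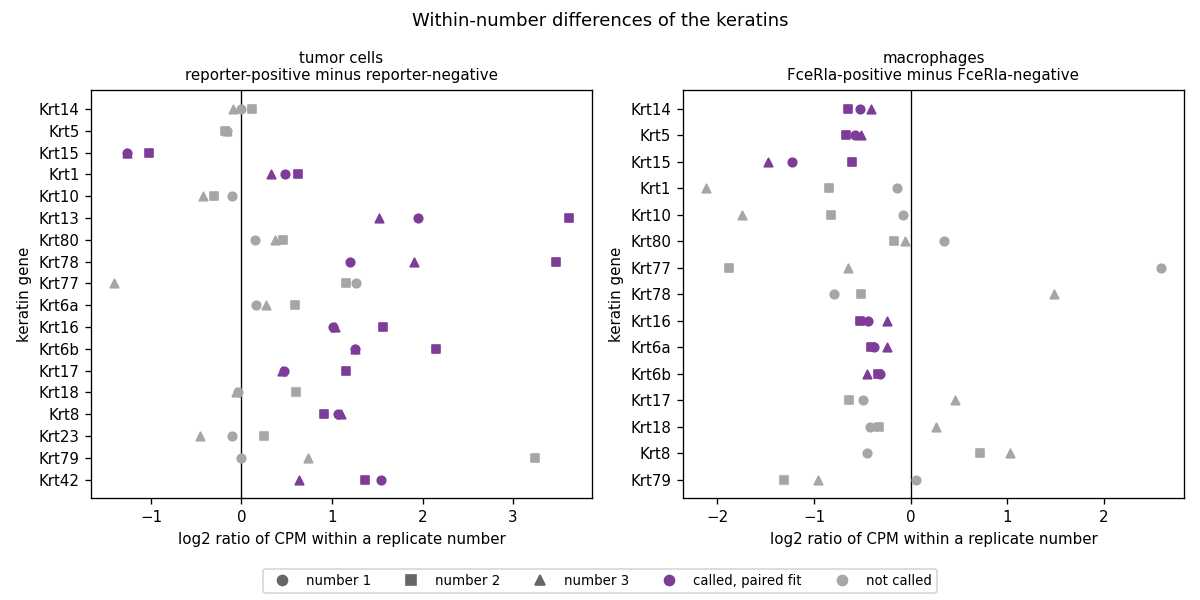
Log2 ratio of positive over negative within each replicate number, with tumor cells and macrophages in separate panels. Each panel shows the named keratins that passed the filter and had counts in every library of that cell type. Shapes mark the 3 numbers, purple marks keratins called in the paired fit, and the vertical line marks no difference. Krt15 lies between -1.27 and -1.02 and Krt16 is above the line in every number of the tumor cells, while Krt13, Krt78 and Krt79 are farthest from the line in number 2.

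Some macrophage genes differed with the reporter, while leukocyte, fibroblast and endothelial genes were not called in the paired fit. The summed CPM of 8 macrophage genes was 26.9, 85.4 and 23.0 in the positive cells and 19.1, 58.8 and 16.8 in the negative cells. In the paired fit 3 of the 8 were called higher, against 10.7% of all genes tested, and the unpaired fit called 0. Leukocyte genes summed to 12.7, 79.9 and 12.5 CPM in the positive cells and 13, 66.5 and 10.8 CPM in the negative cells, with Cd3e at 0, and fibroblast genes to 47.8, 157 and 36.4 CPM in the positive cells and 67.7, 122 and 39.5 CPM in the negative cells. All 3 sums were highest in replicate 2 of both groups, as were Krt14, Krt5, Krt15, Krt16, Krt6a, Krt6b, Krt17, Krt1, Krt10, Krt13, Krt8, Krt42 and Krt79, and their part in the keratin differences was not tested. The 9 epithelial genes of the label check summed to 16937, 19214 and 16701 CPM in the positive cells and 15199, 15070.4 and 14945 CPM in the negative cells. The 6 hair follicle genes summed to 22.6, 46.6 and 23.3 CPM in the positive cells and 19.2, 35.9 and 17.7 CPM in the negative cells.

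As a share of all counts, keratins took 7.23, 9.38 and 7.23% in the positive cells (7.95% ± 1.24, SD, n = 3) and 7.20, 8.45 and 7.26% in the negative cells (7.64% ± 0.705, SD, n = 3). The whole family therefore differed by less than the spread between libraries. Within it the classes were weighed per length, as CPM per kilobase of exon. Per kilobase, Krt14 averaged 20024, Krt5 11784, Krt6a 4223, Krt16 2188, Krt6b 786 and Krt17 785 over the 6 tumor libraries, an order in which Krt6b and Krt17 do not differ beyond their spread. Stress keratins made up 23.5% ± 5.78 of the keratin level per kilobase in the positive cells and 15.3% ± 1.46 in the negative cells (SD, n = 3 each), with ranges of 20.0 to 30.2% and 14.1 to 16.9%. Basal keratins made up 76.0% ± 5.83 in the positive cells and 84.4% ± 1.46 in the negative cells, also without overlap. Both classes together fill nearly the whole keratin level, so the basal share is the counterpart of the stress share and no separate result. Suprabasal keratins were 0.116% ± 0.0898 in the positive cells and 0.091% ± 0.0667 in the negative cells. No test was made of these shares.

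Partner ratios per kilobase describe the same libraries from within. Krt5 per Krt14 was 0.579, 0.505 and 0.586 in the positive cells and 0.639, 0.620 and 0.616 in the negative cells. Krt10 per Krt1 was 0.564, 0.397 and 0.522 in the positive cells and 0.844, 0.759 and 0.882 in the negative cells. Both ratios were lower in every positive library than in every negative one. Krt8 per Krt18 was 0.297, 0.334 and 0.276 in the positive cells and 0.138, 0.270 and 0.124 in the negative cells, also without overlap but with negative replicate 2 close to the positive cells. Krt6a per Krt16 was 1.79, 1.25 and 1.91 in the positive cells and 3.23, 2.43 and 3.23 in the negative cells. Summed over the family, type II keratins per type I were 0.708 ± 0.0305 in the positive cells and 0.756 ± 0.0194 in the negative cells (SD, n = 3 each).

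**Figure D3:**
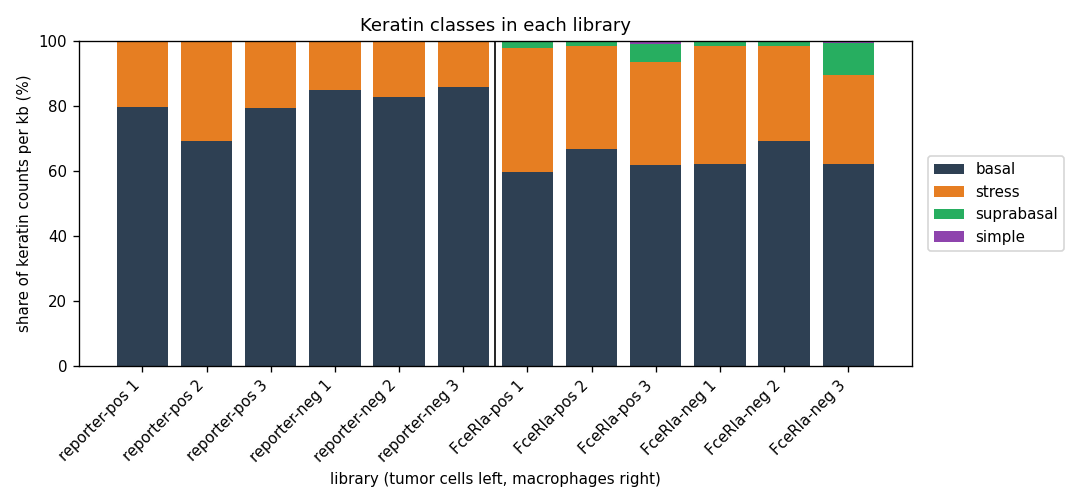
Share of the basal, stress, suprabasal and simple keratins in the keratin level per kilobase of exon, in percent, one bar per library, positive before negative. Root sheath, hair shaft and other keratins are not drawn. Basal and stress keratins fill nearly the whole bar in every library; stress keratins take 20.0 to 30.2% in positive and 14.1 to 16.9% in negative tumor cells, and average 33.9% in positive and 30.8% in negative macrophages, where suprabasal keratins also become visible.

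A list of 22 genes, here called filament-anchoring, held keratin linkers and genes of cell junctions and the cornified envelope. Not every member is a structural keratin linker. Macf1 and the enzymes Tgm1 and Tgm3 are not, and they count among the 9 paired calls below. Of the 22, 18 passed the filter in the tumor cells. The paired fit called 9 of them higher and 0 lower in the positive cells, against 10.7% of all genes tested called higher and 7.34% lower. The groups did not overlap for 9 of the 18 in that direction, against 14.6% of all genes, and the median log2 difference of the 18 was 0.30. The paired count was 5 with numbers 1 and 3 summed and 5 without number 3. The unpaired fit called 1 higher and 0 lower. Dsp, the desmoplakin that ties keratins to desmosomes, had 3521, 4146 and 3484 CPM in the positive cells and 2368, 2481 and 2365 CPM in the negative cells. It was higher in every positive library and was called in both fits (log2 0.62 ± 0.06, adjusted p = 0.00532 paired; 0.63 ± 0.09, adjusted p = 0.0475 unpaired). The unpaired call of Dsp was lost with upper-quartile factors, with numbers 1 and 3 summed, and on leaving out any 1 library other than positive replicate 2, where 0 genes of the list were called. Macf1, which crosslinks actin and microtubules, had a log2 difference of 0.30 ± 0.05 (adjusted p = 0.0132 in the paired fit). Evpl, the envoplakin of desmosomes and the cornified envelope, had one of 0.69 ± 0.14 (adjusted p = 0.0229), and Pkp1, a desmosomal plakophilin, one of 0.42 ± 0.08 (adjusted p = 0.0189). Plec and Dst, plakins of the hemidesmosome that hold keratins to the basement membrane, were not called, with log2 differences of -0.14 ± 0.09 and 0.00 ± 0.07 in the paired fit.

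Of 16 other intermediate filament genes, 8 passed the filter; the paired fit called 1 higher and 2 lower, against 10.7% of all genes higher and 7.34% lower, and the unpaired fit 1 higher and 0 lower. Vim, the vimentin of mesenchymal cells and leukocytes, had 47.9, 51.4 and 55.3 CPM in the positive cells and 29.4, 26.9 and 30.6 CPM in the negative cells. It rose in both fits (log2 0.83 ± 0.06, adjusted p = 0.00303 paired; 0.83 ± 0.08, adjusted p = 0.0341 unpaired). Its unpaired call was lost with numbers 1 and 3 summed and on leaving out any 1 library other than positive replicate 2, where 0 genes of the list were called higher. In the macrophage libraries Vim stood at 1105 to 2623 CPM, and the macrophage gene sums given above were also higher in the positive tumor cells; the part of such cells in the Vim difference was not tested. Lmnb1 and Lmnb2, the B-type lamins of the nuclear envelope, fell by 0.59 and 0.29 (log2, paired fit; adjusted p = 0.00864 and 0.0214). Bfsp1, a lens filament protein, had a log2 difference of 0.38 ± 0.11 and missed the threshold (adjusted p = 0.0614 in the paired fit).

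In the macrophages, keratin counts were present in every library at a small part of the tumor level, and they differed more between replicate numbers than between groups. Keratins took 0.284, 0.182 and 0.0245% of all counts in the FceRIa-positive libraries and 0.406, 0.293 and 0.0374% in the FceRIa-negative libraries. Replicate 3 was the lowest in both groups, and the positive library was below the negative one within each number. The macrophage gene list summed to 27169, 26101 and 28701 CPM in the positive and 17683, 16702 and 14097 CPM in the negative libraries, so the labelled cell type was present in all of them. In the paired fit 7 of these 8 genes were called higher in the positive libraries, against 10.8% of all genes. The groups did not overlap for 6 in that direction, against 11.6% of all genes, and the unpaired fit called 0. The part of this difference in the keratin levels was not tested.

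Of the 55 keratins, 17 passed the filter in the macrophages, 38 did not, and 9 were at 0 in all 6 libraries; no untested keratin had more than 11 counts in a library. The unpaired edgeR fit called 0 of them, 0 had an unadjusted p under 0.05, DESeq2 without pairing called 0, and over all 14988 genes tested it also called 0.0% higher and 0.0% lower, although 2345 genes had an unadjusted p under 0.05. The paired fit called 6 keratins lower and 0 higher in the positive libraries and left 11 uncalled, against 10.2% of all genes lower and 10.8% higher. None of the 17 had groups that do not overlap, where 11.6% of all genes were higher and 9.78% lower without overlap. The median log2 difference of the 17 was -0.37 in the paired fit and -0.52 in the unpaired fit, against 0.0 for all genes.

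All 3 basal keratins fell in the paired fit. Krt14 had 1188, 788 and 97.1 CPM in the positive libraries and 1704, 1236 and 129 CPM in the negative libraries. The range within a group was far wider than the gap between them, and the log2 difference was -0.53 ± 0.10 in the paired fit (adjusted p = 0.00658) and -0.57 ± 1.05 in the unpaired fit (adjusted p = 0.897). Krt5 had 479, 384 and 54.0 CPM in the positive libraries and 713, 611 and 76.8 CPM in the negative libraries. It followed the same order, with a log2 difference of -0.59 ± 0.08 in the paired fit (adjusted p = 0.00231; 0.875 unpaired). Krt15 had 3.28, 6.95 and 1.91 CPM in the positive libraries and 7.71, 10.6 and 5.35 CPM in the negative libraries. For Krt15 replicate 2 was the highest, not replicate 1, and the log2 difference was -1.07 ± 0.19 (adjusted p = 0.0057 paired; 0.438 unpaired).

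In the paired fit 3 of the 4 stress keratins fell. Krt16 had 393, 184 and 23.9 CPM in the positive libraries and 532, 265 and 28.4 CPM in the negative libraries (log2 -0.41 ± 0.09, adjusted p = 0.0126). Krt6a had 305, 183 and 24.0 CPM in the positive libraries and 398, 243 and 28.5 CPM in the negative libraries (log2 -0.35 ± 0.08, adjusted p = 0.0163). Krt6b had 346, 147 and 23.7 CPM in the positive libraries and 433, 186 and 32.3 CPM in the negative libraries (log2 -0.37 ± 0.08, adjusted p = 0.0122). These 3 genes were lower in the positive library of every number, and in the fit without pairing their adjusted p-values were 0.923, 0.928 and 0.94. Krt17 had 62.0, 62.7 and 8.89 CPM in the positive libraries and 87.3, 98 and 6.45 CPM in the negative libraries, so number 3 went the other way and it was not called (log2 -0.31 ± 0.18, adjusted p = 0.259). Leaving out number 1 kept 3 of the 6 paired calls (5 keratins called lower), leaving out number 2 kept 2 of the 6 (4 called lower), and leaving out number 3 kept all 6 (11 called lower).

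The suprabasal, simple and root sheath keratins that passed the filter were not called in the paired fit of all 6 libraries. Krt1 had 59.6, 16.2 and 5.95 CPM in the positive libraries and 65.5, 29.0 and 25.8 CPM in the negative libraries (log2 -0.94 ± 0.30, adjusted p = 0.0598 in the paired fit). Krt10 had 23.9, 11.6 and 5.12 CPM in the positive libraries and 25.3, 20.6 and 17.1 CPM in the negative libraries (log2 -0.83 ± 0.26, adjusted p = 0.0555). In the paired fits, Krt10 was called lower on leaving out number 1, 2 or 3 (adjusted p = 0.039, 0.0444 and 0.0119), with upper-quartile factors (0.0432) and with numbers 1 and 3 summed (0.00193). Krt1 was called lower without number 2 (adjusted p = 0.0303), without number 3 (0.00212), with upper-quartile factors (0.0481) and with the sums (0.00113). In negative replicate 3 these genes were less far below replicate 1 than Krt14 was. Krt80 had 20.6, 6.63 and 15.3 CPM in the positive libraries and 16.3, 7.46 and 16 CPM in the negative libraries, with a log2 difference of 0.05 ± 0.12 (adjusted p = 0.823). Unlike Krt14 and Krt5, it was lowest in replicate 2 and not in replicate 3. Krt8 and Krt18 lay between 0.562 and 2.39 CPM in all 6 macrophage libraries, and Krt13, Krt2, Krt77, Krt78 and Krt79 were at 8.20 CPM or below. Of these, the paired fits called Krt13 lower without number 3 (adjusted p = 0.0068), with upper-quartile factors (0.0458) and with the sums (0.0145), and Krt79 without number 1 (0.0414), without number 3 (0.0265) and with the sums (0.0496).

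**Figure D4:**
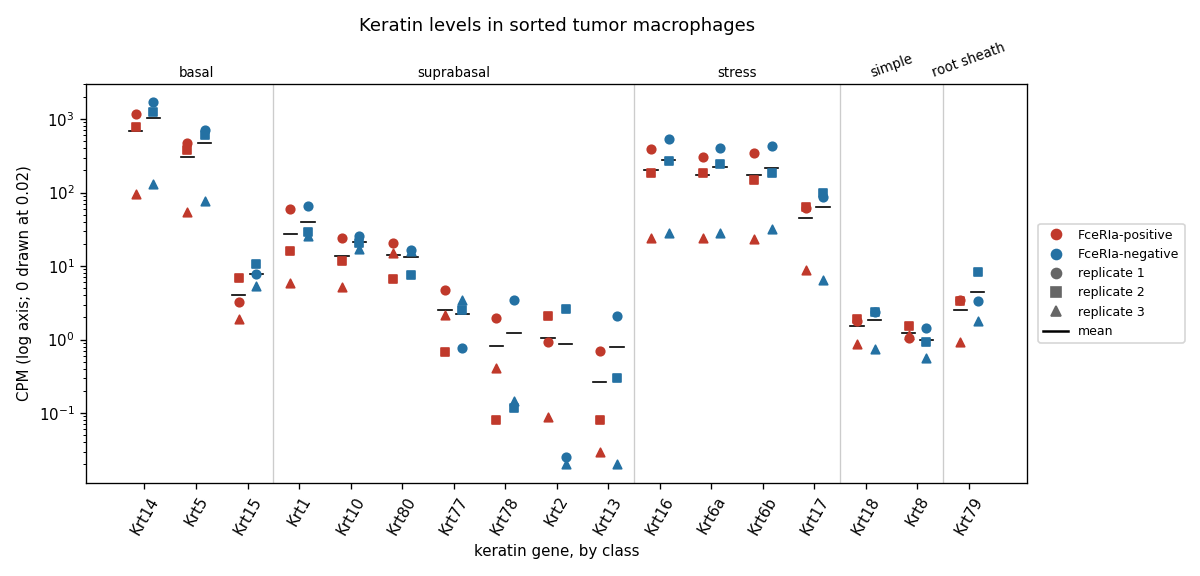
Levels of the named keratins that passed the filter in the macrophage libraries, in CPM on a log axis with 0 drawn at 0.02. Points are single libraries with a shape for each replicate number, FceRIa-positive left of FceRIa-negative for each gene, and bars are group means. Krt14 spans 97.1 to 1188 CPM in positive and 129 to 1704 CPM in negative libraries, with replicate 3 lowest, whereas Krt80 stays within 6.63 to 20.6 CPM in all of them.

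In the paired fit epithelial markers were also lower in the FceRIa-positive libraries. All 9 genes of the epithelial list were called lower there, against 10.2% of all genes. The unpaired fit called 0 of the 9, and the groups did not overlap for 2 of them, Epcam and Cdh1. The summed level of the 9 was 812, 459.6 and 404 CPM in the positive libraries and 1805, 1182 and 2069 CPM in the negative libraries. Within that list the genes split by replicate: Cdh1 and Epcam were highest in replicate 3 of both groups, while the other 7 were lowest there. Cdh1, the E-cadherin of epithelial junctions, made up the largest part of the sum in negative replicate 3, with 216, 139.6 and 306 CPM in the positive libraries and 846, 546 and 1454 CPM in the negative libraries. Perp, a desmosomal protein of keratinocytes, had 144, 78.8 and 10.3 CPM in the positive libraries and 192, 127 and 16.6 CPM in the negative libraries, with replicate 3 lowest as for Krt14. Epcam, an adhesion protein of epithelia that Langerhans cells also carry, had 30.3, 16.1 and 47.0 CPM in the positive libraries and 224, 163 and 529 CPM in the negative libraries. Cd207, the langerin of Langerhans cells, had 5.77, 37.6 and 13.3 CPM in the positive libraries and 44.2, 187 and 209 CPM in the negative libraries, so that it did not share the replicate order of Krt14 either. Of the filament-anchoring genes, 8 of the 18 tested were called lower and 0 higher in the paired fit, against 10.2% of all genes lower and 10.8% higher. Dsp was among the 8, with 181, 60.8 and 12.1 CPM in the positive libraries and 199, 91.0 and 22.0 CPM in the negative libraries. Dsp, Itgb4 and Sfn belong both to this list and to the epithelial list and were called lower, so the counts of both lists share these genes. The unpaired fit called 0 of the 18. The groups did not overlap for 1 that was higher and 1 that was lower, against 11.6% and 9.78% of all genes. The part of epithelial cells or of their RNA in the keratin differences between the macrophage groups was not tested.

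The keratins of the macrophage libraries were not an even fraction of those of the tumor cells. Set against the tumor cells on CPM of all counts, the mean over 6 libraries was 2.48% of the tumor mean for Krt14, 1.52% for Krt5, 1.97% for Krt6a and 1.32% for Krt18. It was 4.62% for Krt17, 7.13% for Krt16, 11.5% for Krt6b and 14.3% for Krt15. For these 8 genes, and for Krt8 at 2.66%, every macrophage library was below every tumor library. The suprabasal keratins ran from 5.85% for Krt13 and 20.9% for Krt78 through 34.5% for Krt1 and 63.2% for Krt10 to 115% for Krt77, 179.8% for Krt2 and 201% for Krt80, and the root sheath keratin Krt79 was at 137%. The libraries of both cell types overlap for each of these. Krt2 lay at 0 to 2.77 CPM in the macrophage and 0 to 2.04 CPM in the tumor libraries, so its percentage rests on few counts. Krt79 ran from 0.712 to 10.9 CPM in the tumor libraries, and positive replicate 2 carries its tumor mean. The 2 tables were normalized separately and the cells were sorted through different gates, so these levels are a description with no test.

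Ratios within a library differed between the cell types as well. Krt6b per Krt6a, per kilobase, was 1.23, 0.870 and 1.07 in the positive and 1.18, 0.827 and 1.23 in the negative macrophage libraries, against 0.149, 0.410 and 0.138 in the positive and 0.0700, 0.139 and 0.0697 in the negative tumor cells. Krt16 per Krt14 was 0.371, 0.263 and 0.276 in the positive and 0.351, 0.241 and 0.247 in the negative macrophage libraries, against 0.121, 0.208 and 0.119 in the positive and 0.0592, 0.0768 and 0.0551 in the negative tumor cells. In both ratios every macrophage library lay above every tumor library, and the macrophage groups overlap each other. Krt6a, Krt6b and Krt16 share stretches with other genes, as given above. How reads of such stretches were assigned is not known, so the size of both ratios is uncertain. Stress keratins made up 33.9% ± 3.67 of the keratin level per kilobase in the positive and 30.8% ± 4.71 in the negative macrophage libraries, and suprabasal keratins 2.89% ± 2.22 in the positive and 4.26% ± 4.87 in the negative ones (SD, n = 3 each). The widest single value was in negative replicate 3, where suprabasal keratins reached 9.88%.

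**Figure D5:**
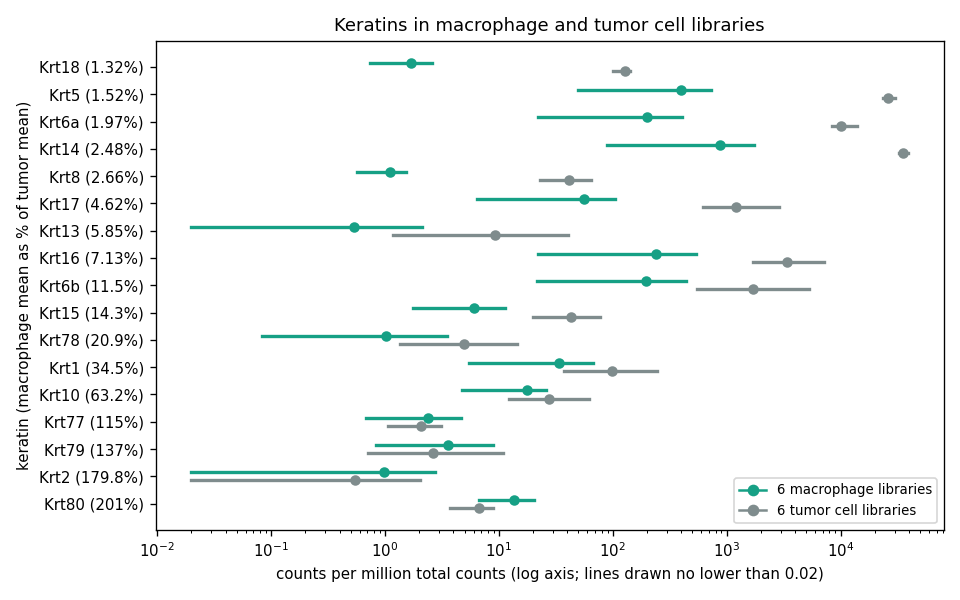
Level of keratins in the 6 macrophage libraries (green) and the 6 tumor libraries (grey), as CPM of all counts on a log axis. Keratins with the lowest macrophage means, such as Krt19, Krt23, Krt42 and Krt74, are left out. Dots are means, and lines run from the lowest to the highest library. Keratins are ordered by the macrophage mean as a percentage of the tumor mean. The lines are far apart for Krt18, Krt5, Krt6a and Krt14, at 1.32 to 2.48%, and overlap for Krt10 and Krt80, at 63.2 and 201%.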

How the data were processed

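Cells were sorted by flow cytometry and libraries were made with Illumina TruSeq v2 from Trizol-extracted RNA (labels' protocols). The tables are raw counts of reads per gene as deposited by the authors; the submitters' processing notes name FastQC, STAR and mm10 (GRCm38) with no version. The sources used here give neither the counting tool nor the read length or strand setting, so reads of similar, overlapping or antisense genes cannot be told apart. Of 53801 genes, 53706 IDs were found in GENCODE M21, and 0 rows name no gene. No step used the 4 count columns that match no sample.

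The test was edgeR's quasi-likelihood test (version 4.0.16, R 4.3.3; TMM scaling; filterByExpr with a minimum count of 10; Benjamini-Hochberg adjusted p under 0.05), on the 6 libraries of a comparison and over all genes that passed. Log2 differences are positive minus negative. The design without pairing was the first choice, and the fit blocked by replicate number was an alternative. To check whether the numbers pair the libraries, each library's deviation from its group mean was correlated with that of its same-numbered partner. In the tumor cells r was 0.449 for number 1, 0.703 for number 2 and 0.488 for number 3; in the macrophages it was 0.688, 0.787 and 0.734. Since every r exceeded 0.1, paired values stand beside unpaired ones. Tumor negative replicate 1 correlated as well with positive replicate 3 (0.488) as with positive replicate 1, so there the numbers mainly set replicate 2 apart. With the block, edgeR's biological coefficient of variation was 0.0764 in the tumor libraries (0.188 unpaired) and 0.102 in the macrophage libraries (0.302 unpaired), on 2 residual degrees of freedom (4 unpaired).

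Levels per kilobase used the exon union length of GENCODE M21. Promoters came from RefSeq on GRCm38.p6, where 36 of 55 keratins had a window. Keratins were named in the text if their mean was at least 1 CPM in the tumor libraries, if they passed the macrophage filter, or if a fit called them; the anchoring and other filament lists name up to 4 genes each with the smallest unpaired p. Plec, Dst, Tgm1, Tgm3, Itgb4, Sfn, Perp, Epcam, Cdh1, Cd207, Krt74, Krt7, Krt19, Krt27, Krt71, Krt32, Krt222, Krt88, Krt90 and Krt8-ps lie outside that rule, and their values had been seen when they were chosen. The keratins and all lists were chosen with earlier results of these data known. Of 137 list genes, 1 was unmatched (Krt85). As alternatives, DESeq2 1.42.0, 2 other scalings, changed count filters, the block and each left-out library were run; leaving out both number 2 libraries, sums of numbers 1 and 3 and 2 scaling factors with the block were added after seeing the data. The scripts were tested on simulated data.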

Additional observations from a re-analysis of the deposited data

How the results depend on the processing

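Counts of calls depend on the pairing. DESeq2 size factors in edgeR, a filter of 1 CPM in 3 libraries and upper-quartile factors left the unpaired counts of keratins at 0 in both directions and both cell types. Unpaired, leaving out 1 library gave 0 to 2 keratins higher and 0 to 1 lower in the tumor cells, the 2 (Krt74 and Krt78) and the 1 (Krt15) without positive replicate 2, and dropping the count filter gave 1 higher (Krt8). DESeq2 gave 3 higher and 1 lower. The replicate block gave 8 higher and 1 lower, as it did with DESeq2 size factors or with numbers 1 and 3 summed; with upper-quartile factors it gave 8 and 2, and in DESeq2 9 and 1. With the block and without number 1, 2 or 3, it gave 9, 11 and 9 higher and 2, 4 and 1 lower, and without number 2 and the block 11 higher and 4 lower. The 9 keratins called in the paired fit were called in all 7 other paired settings. These settings refit the same 6 tumor libraries or a part of them, in which numbers 1 and 3 differ little, so they are not independent of each other. In the macrophages the block gave 6 lower, as with DESeq2 size factors and in DESeq2. Upper-quartile factors gave 9, summing numbers 1 and 3 gave 11, and leaving out number 1, 2 or 3 gave 5, 4 and 11. Apart from the unpaired and the paired fit of all 6 libraries, the share of all genes called in a setting is not given here. These counts, and those of the lists below, therefore do not set the members apart from other genes.

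Of the filament-anchoring genes, the unpaired fit called 1 higher, DESeq2 6, upper-quartile factors 0, summed numbers 0, and leaving out 1 library 0 to 5. The block gave 9, also with either other scaling and in DESeq2; summed numbers with the block gave 5, the block without number 1, 2 or 3 gave 8, 11 and 5, and number 2 left out unpaired gave 11. Of the other filament genes, 1 was higher in the unpaired fit, 0 to 1 with 1 library left out, 0 with summed numbers, and 2 in DESeq2 with the block, without number 2 unpaired, and with the block without number 1 or 2. Of these genes, 0 were lower unpaired and 1 in DESeq2; the block gave 2, likewise with either scaling or in DESeq2, then 1 with summed numbers, 1, 3 and 1 without number 1, 2 or 3, and 3 unpaired without number 2.

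Log2 differences that turned sign were those of keratins not called in that fit, apart from Krt14 in the tumor cells without number 2. Tumor Krt14 (0.01) was -0.06 without number 2 in either fit, called in both, -0.01 with upper-quartile factors and the block, and -0.12 to 0.07 with 1 library left out. With 1 library left out, tumor Krt1 ranged from -0.68 to 1.65, Krt10 from -1.22 to 0.67, Krt17 from -0.04 to 1.35 and Krt23 from -0.53 to 0.10. Tumor Krt18 was -0.05 without number 2 in both fits, Krt23 0.04 with the block without number 3, and Krt77 -0.07 without number 2 unpaired and -0.06 and -0.05 with the block without number 1 or 2. In the macrophages, leaving out 1 library gave ranges of -3.74 to 0.76 for Krt13, -1.21 to 0.02 for Krt14, -1.40 to 0.46 for Krt16, -1.11 to 0.33 for Krt6a, -1.34 to 0.66 for Krt6b, -2.31 to 2.63 for Krt78, -1.19 to 0.01 for Krt79, -0.76 to 5.98 for Krt2, -0.65 to 0.62 for Krt77 and -0.27 to 0.44 for Krt80. With the block and without number 1, Krt2 was -0.11, Krt77 -1.20 and Krt80 -0.12; Krt77 was also -0.11 in DESeq2 with the block, -0.09 and -0.20 with summed numbers without and with the block and -0.04 with upper-quartile factors and the block, where Krt80 was -0.01. The cause of these changes was not tested. Where a group was left with 1 library, that library was assumed to vary like the others. The median log2 difference over all genes lay between -0.058 and 0.003 under every scaling. Depth limits the hair shaft and most root sheath keratins, which were at or near the floor of 3 counts.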
